A study of Mus musculus with 6 samples.

Results

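A set of 9 genes of retinoic acid sensing and handling was followed in mouse embryonic stem cells (mESCs). They were the receptor genes Rara, Rarb, Rarg, Rxra and Rxrb, the binding protein genes Crabp1 and Crabp2, the membrane receptor gene Stra6 and the degrading enzyme gene Cyp26a1. They were chosen by symbol as the rows of the deposited count table bearing these names, which gave 9 of 27179 genes. The cells expressed Tfe3-ERT2, a version of murine Tfe3 that moves to the nucleus when tamoxifen binds it, and both groups carried it. The comparison was between 3 libraries of cells given 4-hydroxytamoxifen (4OHT) at 1 µg/mL for 48 h and 3 libraries of cells given ethanol (EtOH) as vehicle, all grown with 10% serum and 1000 U/mL of the cytokine LIF. No group without the fusion was analysed here, so an effect of 4OHT itself and an effect of nuclear Tfe3 cannot be told apart. Whether replicates were separate cultures or clones is not stated in the labels, and p-values then measure only the spread between these libraries, which may be technical.

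Retinoic acid is made from vitamin A and acts on genes through nuclear receptors. A retinoic acid receptor (RAR) pairs with a retinoid X receptor (RXR) on DNA, usually at direct repeats of a short half-site, and the pair represses its targets without ligand and activates them with it. Cellular retinoic acid binding proteins (CRABPs) carry the ligand in the cytoplasm, STRA6 brings retinol into cells, and CYP26 enzymes break retinoic acid down. In mESCs, retinoic acid is a widely used signal for leaving pluripotency, and Rarb and Cyp26a1 are among its best known direct targets.

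The promoter windows of Rarb and Cyp26a1 are shown because both genes are classic readouts of the receptors, and that of Rara because it was the receptor gene that fell. The sequences are those of RefSeq on GRCm38.p6, 5′ to 3′ on the strand of the gene, and cover the 250 bases before an annotated start site. Capitals mark the RAR type of direct repeat in Rarb and Cyp26a1, and in Rara an E-box, the CACGTG core to which factors of the Tfe3 family bind.
Rarb (chr14:16575477-16575726, minus strand): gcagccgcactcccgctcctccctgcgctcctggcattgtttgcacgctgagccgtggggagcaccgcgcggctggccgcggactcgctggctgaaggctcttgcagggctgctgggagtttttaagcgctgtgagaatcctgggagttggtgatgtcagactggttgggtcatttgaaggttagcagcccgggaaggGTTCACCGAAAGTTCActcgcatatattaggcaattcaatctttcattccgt
Cyp26a1 (chr19:37697558-37697807, plus strand): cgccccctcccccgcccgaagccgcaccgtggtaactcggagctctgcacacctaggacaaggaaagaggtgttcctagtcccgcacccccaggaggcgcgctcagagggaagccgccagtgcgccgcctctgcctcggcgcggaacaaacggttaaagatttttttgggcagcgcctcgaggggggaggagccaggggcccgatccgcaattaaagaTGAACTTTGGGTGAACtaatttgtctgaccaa
Rara (chr11:98937468-98937717, plus strand): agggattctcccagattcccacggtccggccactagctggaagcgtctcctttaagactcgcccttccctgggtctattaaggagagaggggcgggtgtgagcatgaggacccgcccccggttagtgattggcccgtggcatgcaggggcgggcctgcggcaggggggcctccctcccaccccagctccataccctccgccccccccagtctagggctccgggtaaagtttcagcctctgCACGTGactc

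The direct repeat was searched as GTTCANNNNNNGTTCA on both strands of windows of 300 bases, 250 before and 50 after a start site. It was present in 0.0761% of 32851 windows and, among the 8 of 9 genes with a window, in Rarb (bases -52 to -37 from the start) and Cyp26a1 (-32 to -17). The variant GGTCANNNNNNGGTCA (0.1% of windows) and the closer repeats GTTCANNNGTTCA (0.225%) and GGTCANNNGGTCA (0.067%) had no match in the 17 windows of these genes. CACGTG, which reads the same on both strands, was present in 7.15% of windows and in 8.09% of genes with a window. Among these genes it was in Rara alone, which holds 4 of the 17 windows. There the same site lies at -10 to -5 from the start shown and at 13 to 18 after another annotated start. The longer TCACGTGA, which contains CACGTG, was present in 0.974% of windows and in none of these genes. Crabp2 had no entry. A match describes the letters in the window and does not show that a factor was bound.

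Rara, Crabp1 and Crabp2 fell in 4OHT, by 1.59-fold, 2.03-fold and 2.93-fold, while no change was called for the most abundant receptor gene Rarg or for Rxra and Rxrb. Of the 9 genes 6 had enough counts to test, and 3 of these were lower. None was higher by edgeR's quasi-likelihood test, with 0 higher at an unadjusted p under 0.05 and 0 higher by DESeq2 or limma-voom. Rarb, Stra6 and Cyp26a1 were detected at no more than 7 counts in any library and were not tested. Over all 12345 genes tested, 42.0% were called at a Benjamini-Hochberg adjusted p under 0.05 (20.6% lower and 21.4% higher), so a call in this comparison is common. The groups did not overlap for 4 of the 6 tested genes, Rara, Rxrb, Crabp1 and Crabp2, all lower in 4OHT. Over all genes tested this was so for 48.8%, with 23.7% lower and 25.1% higher. The median log2 fold change of the 6 tested genes was -0.43, against 0.00 over all genes tested, as a description of genes that passed the filter. Crabp2 passed it through its EtOH libraries, at 5.42, 6.31 and 5.40 CPM against 1.73, 2.52 and 1.56 in 4OHT. Its entry to the test was thus tied to its direction, and it is part of each of these counts and of the median.

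Total counts ran from 4092877 to 6427880 per library, and in CPM (counts relative to the TMM-scaled library total) a count of 3 was worth 0.467 to 0.736. Tfe3, whose counts pool the endogenous gene and any shared sequence of the fusion, was between 1001 and 1071 CPM in EtOH and between 825 and 833 CPM in 4OHT (log2 fold change -0.32, SE 0.03, edgeR adjusted p = 9.8e-19). As a check of the cell type, all 8 listed markers of pluripotent cells were tested. Their summed level ran from 4647 to 4807 CPM in EtOH and from 4713 to 4756 CPM in 4OHT, a sum to which changes in opposite directions contributed. Esrrb (564 ± 14.4 to 879 ± 7.41 CPM), Nanog (257 to 282 CPM) and Zfp42 (290 to 324 CPM) were higher. Tdgf1 (946 to 742 CPM), Pou5f1 (789 to 695 CPM) and Utf1 (355 to 275 CPM) were lower, and Sox2 and Dppa5a were not called. These are bulk libraries, in which fewer cells expressing a gene and less RNA per cell cannot be told apart.

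**Figure D1:**
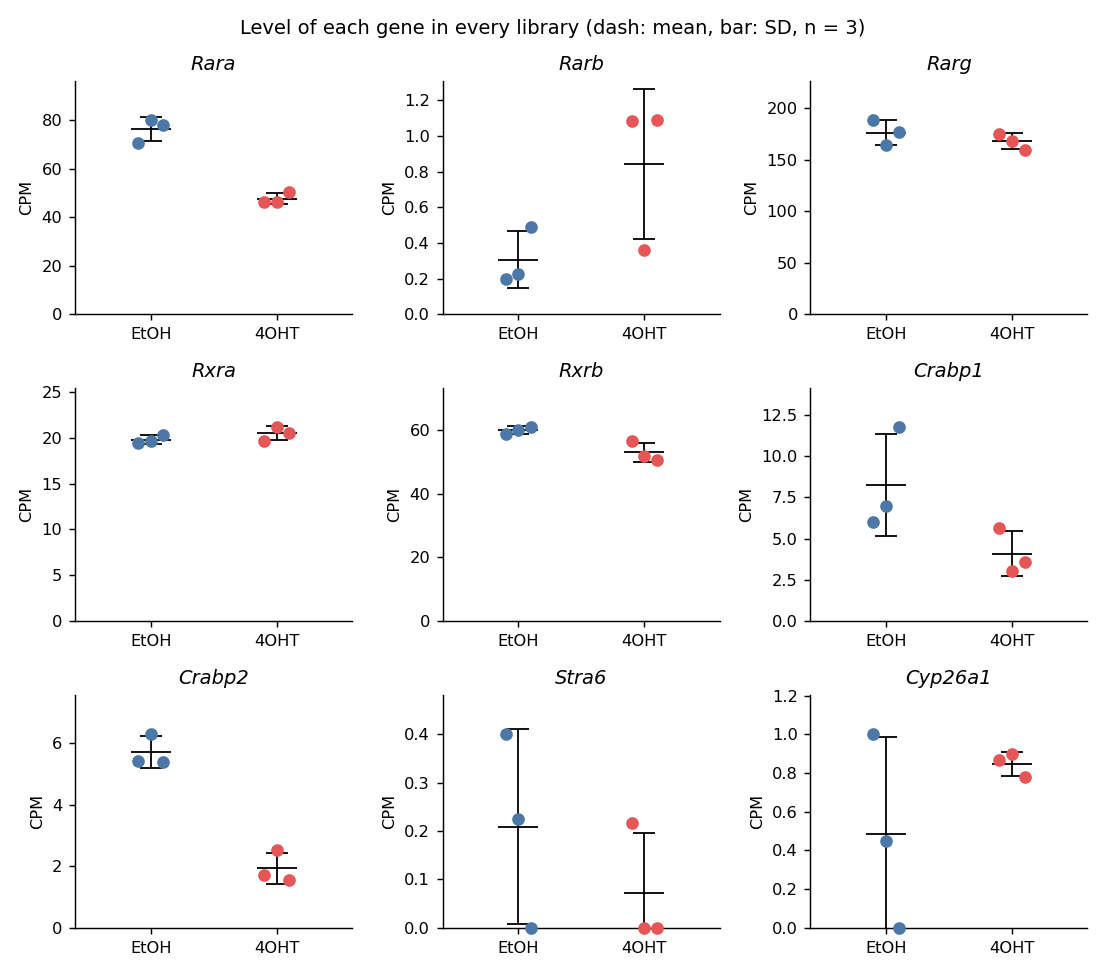
Level of each of the 9 genes in CPM on linear axes that start at 0, 1 panel per gene with its own scale; points are libraries (blue EtOH, red 4OHT), dashes means and bars SD of 3 libraries. Rara, Crabp1 and Crabp2 sit lower in all 3 libraries given 4OHT, as does Rxrb by a smaller margin.

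Among the RAR genes, Rara (chromosome 11, 98927800 to 98974942 on GRCm38.p6, as for all gene spans below) encodes the receptor RARα. With vehicle its level was 70.9, 80.2 and 78.2 CPM, and with 4OHT 46.5, 46.2 and 50.5 CPM. Every 4OHT library was below every EtOH library. The log2 fold change was -0.67 (SE 0.08, 95% interval -0.82 to -0.52, edgeR adjusted p = 7.3e-15).

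Rarg (chromosome 15, 102234938 to 102257522), which encodes RARγ, was at 189, 164 and 177 CPM in EtOH and at 175, 168 and 159.8 CPM in 4OHT. The groups overlapped, and the log2 fold change of -0.08 was not called (SE 0.05, 95% interval -0.17 to 0.02, edgeR adjusted p = 0.20). It was called lower without EtOH replicate 2, the lowest EtOH library for this gene (-0.13, edgeR adjusted p = 0.048).

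Rarb (chromosome 14, 16430839 to 17082331), which encodes RARβ and carries the direct repeat shown above, gave 1, 1 and 2 counts with vehicle and 5, 2 and 7 with 4OHT. The levels overlapped between groups, 4OHT replicate 2 (0.360 CPM) lying below EtOH replicate 3 (0.491 CPM). Summed over libraries and scaled for depth, 4 counts against 14 gave a ratio of 2.84 (exact 95% interval 0.893 to 11.9, counting error only). With no filter on low counts the log2 fold change was 1.44 and was not called (edgeR adjusted p = 0.24). In GENCODE vM21, 38.4% of the exon bases of Rarb overlap genes on the other strand, Top2b among them, and the strand setting of the counting is not given in the sources used here.

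Per length (RPKM, here CPM per kilobase of the deposited gene length), Rarg made up 77.3%, 72.4% and 74.2% of the summed RAR level in EtOH and 82.4%, 82.2% and 79.8% in 4OHT. The share of Rara went from 25.2 ± 2.49% to 18.0 ± 1.36% (SD, n = 3 each; exact two-sided permutation p = 0.10). The summed RAR level itself was 73.5 ± 2.76 RPKM in EtOH and 64.1 ± 1.96 RPKM in 4OHT (SD, n = 3 each; exact two-sided permutation p = 0.10). In each case the groups did not overlap, and 0.10 is the smallest p that 3 against 3 libraries allow.

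**Figure D2:**
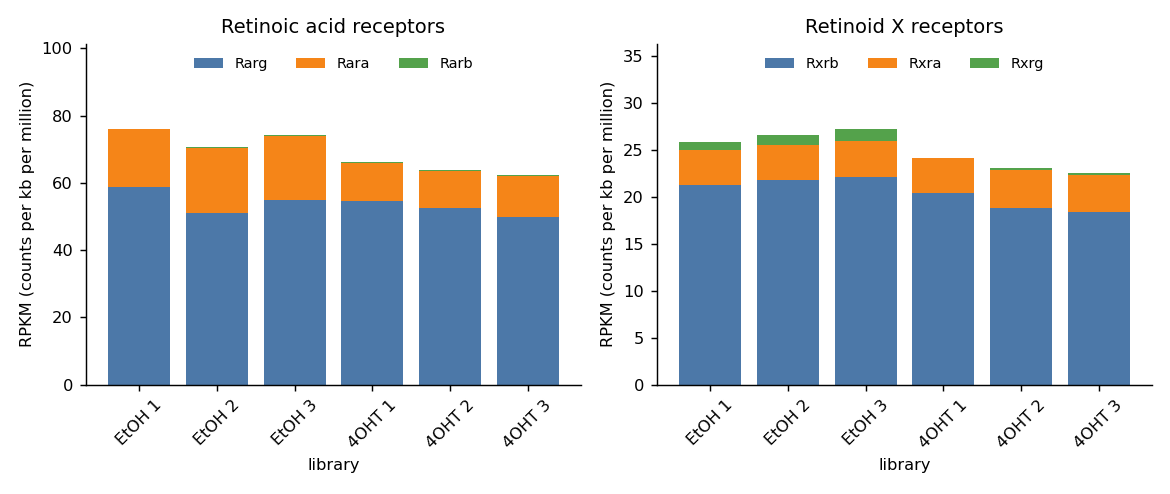
Summed level of the receptor genes in RPKM (vertical axis, from 0) in each of the 6 libraries, RARs on the left and RXRs on the right, with each gene's part stacked in colour. Rarg and Rxrb are the largest parts in every library, and the Rara part is smaller in the 3 libraries given 4OHT.

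RXRs are the shared partners of RARs and of several other nuclear receptors. Rxrb (chromosome 17, 34031812 to 34038403) was at 58.8, 60.2 and 61.1 CPM in EtOH and at 56.5, 52.0 and 50.8 CPM in 4OHT. The groups did not overlap, but the log2 fold change of -0.18 was just outside the threshold (SE 0.08, 95% interval before adjustment -0.34 to -0.03, edgeR adjusted p = 0.052). It was called with DESeq2 size factors (adjusted p = 0.047), upper quartile factors (0.018) and limma-voom (0.048), and not by DESeq2 itself (0.18).

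Rxra (chromosome 2, 27676445 to 27763319) was at 19.5, 19.6 and 20.4 CPM in EtOH and at 19.7, 21.2 and 20.6 CPM in 4OHT. The groups overlapped and the log2 fold change was 0.05 (SE 0.13, 95% interval -0.21 to 0.31, edgeR adjusted p = 0.78), an interval whose upper end is a 1.24-fold rise.

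The remaining RXR gene, Rxrg (chromosome 1, 167598362 to 167639623), is not among the 9 and was named after its values were seen. Its libraries held 10, 11 and 12 counts with vehicle and 0, 3 and 4 with 4OHT, too few for the filter. All 4OHT libraries were below all EtOH libraries. The depth-scaled ratio of 33 to 7 counts was 0.172 (exact 95% interval 0.0644 to 0.396), and with no filter the log2 fold change was -2.47 (edgeR adjusted p = 0.00018). Its part of the summed RXR level per length was small, 3.94 ± 0.645% in EtOH and 0.721 ± 0.631% in 4OHT (SD, n = 3 each), where Rxrb held 81.9% and 82.5%.

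Of the CRABP genes, Crabp2 (chromosome 3, 87948693 to 87953372), whose protein is known for handing retinoic acid to RARs, gave 27, 28 and 22 counts with vehicle and 8, 14 and 10 with 4OHT. In CPM these were 5.42, 6.31 and 5.40 against 1.73, 2.52 and 1.56. All 4OHT libraries lay well below the EtOH libraries. The log2 fold change was -1.55 (SE 0.32, 95% interval -2.18 to -0.93, edgeR adjusted p = 1.1e-05).

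Crabp1 (chromosome 9, 54764748 to 54773110), whose protein is mostly linked to holding retinoic acid in the cytoplasm, gave 30, 31 and 48 counts with vehicle and 26, 17 and 23 with 4OHT. The levels were 6.02, 6.99 and 11.8 CPM against 5.63, 3.06 and 3.58 CPM. The groups did not overlap, though 4OHT replicate 1 was close to EtOH replicate 1, and EtOH replicate 3 stood above the others. The log2 fold change was -1.02 (SE 0.25, 95% interval -1.51 to -0.53, edgeR adjusted p = 0.00025).

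Per length the CRABP genes together were at 17.5 ± 3.97 RPKM in EtOH and 7.67 ± 1.61 RPKM in 4OHT (SD, n = 3 each; exact two-sided permutation p = 0.10, the smallest possible). Crabp1 held 62.5 ± 8.78% of that sum in EtOH and 71.0 ± 10.4% in 4OHT (exact two-sided permutation p = 0.20), and these shares overlapped between groups. The intervals of the Crabp1 and Crabp2 fold changes also overlapped, and the difference between them was not tested beyond this share.

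**Figure D3:**
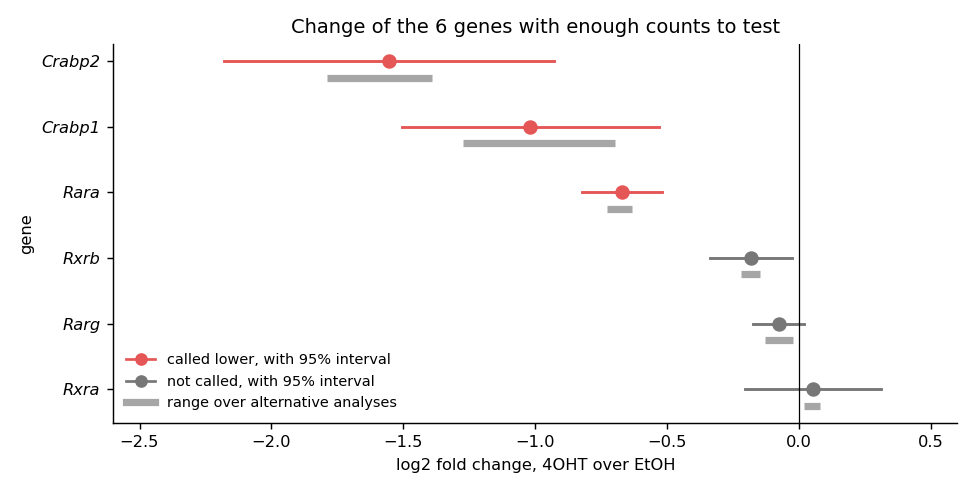
Log2 fold change, 4OHT over EtOH (horizontal axis), of the 6 tested genes with 95% intervals (red, called lower; grey, not called); thick bars give the lowest and highest value over the 14 alternative analyses. Crabp2 (-1.55), Crabp1 (-1.02) and Rara (-0.67) lie left of 0, and Rxra, Rarg and Rxrb lie close to it.

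The entry and exit points of the pathway were barely detected. Stra6 (chromosome 9, 58063793 to 58154004) gave 2, 1 and 0 counts with vehicle and 1, 0 and 0 with 4OHT. The ratio of the summed counts, 0.271, had an exact 95% interval from 0.00516 to 3.37, so no difference was detectable at this depth. Cyp26a1 (chromosome 19, 37697738 to 37701536) gave 5, 2 and 0 counts with vehicle and 4, 5 and 5 with 4OHT. Its ratio was 1.63 (exact 95% interval 0.614 to 4.76), and the groups overlapped. With no filter neither was called (edgeR adjusted p = 0.54 for Stra6 and 0.57 for Cyp26a1).

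In order of level per length in EtOH, Rarg came first at 54.9 ± 3.85 RPKM, then Rxrb (21.7 ± 0.407), Rara (18.5 ± 1.19), Crabp1 (11.1 ± 4.16), Crabp2 (6.34 ± 0.578) and Rxra (3.76 ± 0.0903; SD, n = 3 for each). Neighbours among these 6 did not overlap in any library. Cyp26a1 (0.272 RPKM), Rarb (0.110) and Stra6 (0.0574) followed, and their ranges overlapped. In 4OHT the order was the same except that Rxra (3.89 ± 0.145 RPKM) stood above Crabp2 (2.15 ± 0.568). Rxrb exceeded Rara by little in EtOH, where its lowest library was at 21.3 RPKM and the highest Rara library at 19.4, and by more in 4OHT (19.2 ± 1.09 against 11.6 ± 0.573 RPKM).

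The genes with profiles nearest to that of Rara, the most abundant gene that was called, were Abracl, the DNA repair gene Rad51c and the neuronal tubulin gene Tubb3. Their log2 CPM over the 6 libraries, centred on the mean, differed from that of Rara by a root mean square of 0.0379, 0.0389 and 0.0414. Among 11394 candidate genes 60 were within 0.1, so the profile is shared by many genes.

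Other genes of the pathway, from lists that also hold lowly expressed enzymes, were compared the same way. Over all genes tested, 21.4% were higher and 20.6% lower. Among 6 tested of 23 genes of retinoid synthesis, 1 was lower and 0 were higher by edgeR or DESeq2 (1 higher at an unadjusted p under 0.05). The lower gene was Adh5, an alcohol dehydrogenase also known for formaldehyde detoxification (378 ± 26.4 CPM with vehicle, 308 ± 9.91 CPM with 4OHT, edgeR adjusted p = 8.6e-11). When any single library was left out, 2 genes of the list were lower. Those fits also let more low genes pass the filter (12536 to 12638 tested against 12345), so the added call need not depend on a library. Rdh10, the main retinol dehydrogenase of embryos, averaged 10.5 ± 0.723 CPM with vehicle and 9.18 ± 0.884 CPM with 4OHT, a difference that did not pass (edgeR adjusted p = 0.45).

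Aldh1a2, which makes retinoic acid from retinaldehyde, and Adh7, a retinol-oxidising alcohol dehydrogenase, were named after their values were seen. Aldh1a2 gave 10, 13 and 15 counts with vehicle and 4, 5 and 8 with 4OHT, with all 4OHT levels below all EtOH levels. Its depth-scaled ratio was 0.364 (exact 95% interval 0.192 to 0.660), and with no filter its edgeR adjusted p was 0.0079. Adh7 had 2 counts in EtOH and 27 in 4OHT, summed over 3 libraries (edgeR adjusted p = 0.00060 with no filter).

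Among 8 tested of 17 genes of retinoid transport and storage in the table, 3 were higher and 1 lower, and DESeq2 called 0 in either direction. Over all genes tested 42.0% were called by edgeR, so the number of calls in this list is near that share. DESeq2 called fewer genes everywhere, 3687 of 12345 against 5189 by edgeR. Higher were Lrp1 (68.0 ± 2.54 to 78.6 ± 1.35 CPM), a lipoprotein receptor, Lpl (5.50 ± 0.910 to 8.60 ± 1.22 CPM), a lipase of the cell surface, and Rlbp1 (4.90 ± 1.27 to 7.32 ± 0.911 CPM), a retinaldehyde binding protein gene. The lower gene was Fabp5, which encodes another carrier of retinoic acid (4.96 ± 1.53 to 2.97 ± 1.21 CPM). Its groups overlapped, and the edgeR adjusted p of 0.043 became 0.39 without EtOH replicate 1, 0.063 without EtOH replicate 3, 0.15 without 4OHT replicate 1 and 0.19 without 4OHT replicate 2. Rlbp1 was likewise not called without EtOH replicate 3 (edgeR adjusted p = 0.24) or without 4OHT replicate 2 (0.095) or replicate 3 (0.11). Without 4OHT replicate 2 a single gene of the list was higher. Lpl was not called without EtOH replicate 1 (edgeR adjusted p = 0.086) or 4OHT replicate 2 (0.078). Of the genes of retinoic acid breakdown beside Cyp26a1, Cyp26b1 gave 0, 0 and 1 counts with vehicle and 1, 1 and 7 with 4OHT. Most of its 4OHT counts thus came from replicate 3, the groups overlapped, and with no filter it was not called (edgeR adjusted p = 0.15). Cyp26c1 had 3 counts in EtOH and 4 in 4OHT, summed over 3 libraries. Por, the electron donor of cytochrome P450 enzymes, was the only one tested, with a log2 fold change of 0.06 (edgeR adjusted p = 0.61), and DESeq2 and an unadjusted p under 0.05 also gave 0 calls.

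Coregulators of nuclear receptors, with a few orphan receptors that share their DNA sites, changed in both directions. Of 26 tested, 13 were higher, 5 lower and 8 not called, with a median log2 fold change of 0.18 (all genes tested: 21.4% higher and 20.6% lower, median 0.00). The steroid receptor coactivator gene Ncoa3 went from 277 ± 9.95 to 421 ± 9.18 CPM (1.52-fold, edgeR adjusted p = 2.4e-35). Ncoa6 rose 1.59-fold (58.2 ± 4.86 to 92.8 ± 3.98 CPM) and Nr6a1, an orphan receptor gene known for silencing Pou5f1 in differentiating cells, 1.56-fold (82.8 ± 5.97 to 129 ± 6.20 CPM). The corepressor gene Ncor1 rose 1.14-fold. Lower were the arginine methyltransferase genes Carm1 (1.26-fold) and Prmt1 (1.17-fold), Asxl1 (1.24-fold), Tbl1xr1 (1.17-fold), part of the NCoR complex, and the orphan receptor gene Nr2f6 (1.28-fold). Nr2f6 was not called without 4OHT replicate 1 (edgeR adjusted p = 0.10), nor Tbl1xr1 without 4OHT replicate 2 (0.094). DESeq2, which called fewer genes over all tested (3687 against 5189), called 7 higher and 3 lower. By edgeR 8 were higher without EtOH replicate 2 or without 4OHT replicate 3. Among 4 tested partners of RXR and related receptors, Nr4a1, an immediate early receptor gene (52.7 to 76.1 CPM), and Ppard, a fatty acid receptor gene (32.3 to 41.7 CPM), were higher. None was lower, with 0 by DESeq2 and 1 at an unadjusted p under 0.05, and 1 or 2 were lower when any single library was left out. Those fits again let more low genes of the list be tested, so these calls need not depend on a library. Below the filter, and named after their values were seen, Pparg gave 0 counts in all EtOH libraries and 3, 12 and 11 with 4OHT (edgeR adjusted p = 1.4e-05 with no filter), and Rora gave 2, 3 and 3 counts against 15, 11 and 15 (0.0013).

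Genes listed here as induced by retinoic acid moved both ways, and whether each responds to it in these cells was not tested. Of 18 tested of 36, 8 were higher and 4 lower, with a median log2 fold change of 0.49 (all genes tested: 21.4% higher and 20.6% lower, median 0.00). DESeq2 called 5 and 3. Zfp703, among the higher genes, gave 12, 5 and 2 counts with vehicle and 12, 27 and 22 with 4OHT. Ret, also higher, gave 10, 7 and 20 against 20, 27 and 36. Both passed the filter through their 4OHT libraries, where they are high. The higher genes included Cdx1 (6.11 ± 0.922 to 20.5 ± 1.14 CPM, 3.32-fold), a caudal homeobox gene, Tgm2, a transglutaminase gene (16.0 ± 1.13 to 50.7 ± 6.05 CPM, 3.16-fold), and Bhlhe40, a transcriptional repressor gene (66.8 CPM to 190.0 CPM, 2.85-fold, edgeR adjusted p = 1.5e-71). Among those that fell were Upp1, a uridine phosphorylase gene (2.62-fold lower, from 276 ± 13.9 CPM with vehicle to 105 ± 9.04 CPM with 4OHT, edgeR adjusted p = 5.4e-75) and the meiotic genes Stra8 (1.90-fold lower) and Rec8 (1.53-fold lower). Stra8 was not called without EtOH replicate 3 (edgeR adjusted p = 0.060) or 4OHT replicate 3 (0.087). Without EtOH replicate 2, and also without 4OHT replicate 3, 5 genes were higher, and without 4OHT replicate 3 2 were lower. Hoxb1, a homeobox gene, had 3 counts in EtOH and 0 in 4OHT, summed over 3 libraries.

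**Figure D4:**
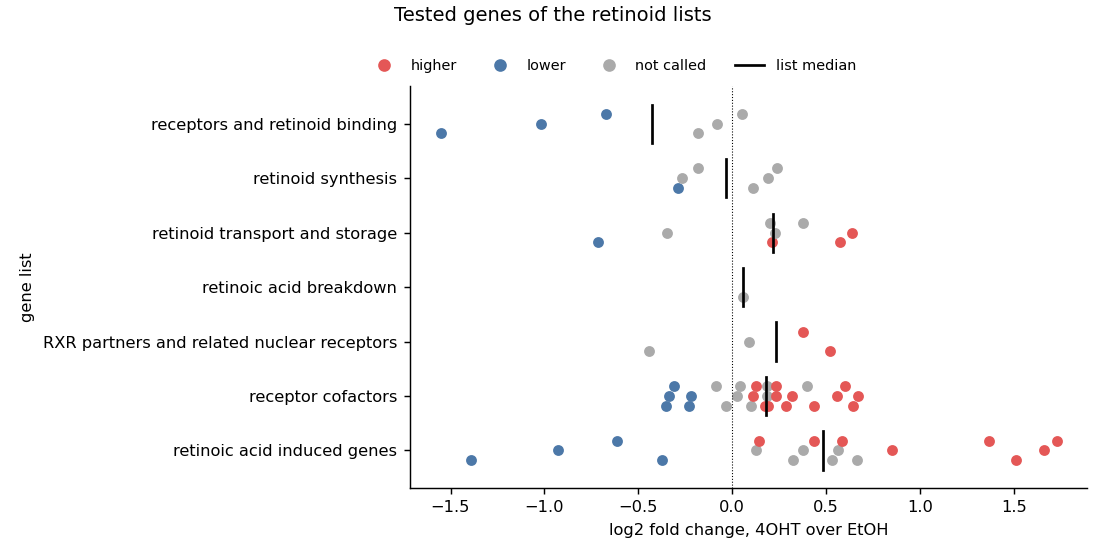
Log2 fold change, 4OHT over EtOH (horizontal axis), of every tested gene of the retinoid lists (vertical axis); points are genes (red higher, blue lower, grey not called) and black lines list medians. The receptors and binding proteins have their called genes left of 0, and the coregulators hold 13 genes called higher and 5 called lower.

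Markers of other cell types were measured in the same libraries, and their part in these results was not tested. Beside each count below stand the shares over all genes tested, 20.6% lower and 21.4% higher. Of 6 tested of 12 neural ectoderm markers, 3 were lower, Nes, Olig2 and Tubb3, and 0 were higher by edgeR or DESeq2 (0 at an unadjusted p under 0.05). Their summed level ran from 215 to 225 CPM in EtOH and from 129 to 135 CPM in 4OHT. Sox1 (4.50 and 6.27 CPM), Pax6 (3.26 and 2.64 CPM) and Map2 (15.9 and 14.2 CPM) were not called. Neurog1 and Neurog2 were not tested, with 2 and 1 counts summed over the EtOH libraries and 0 in 4OHT. With no filter neither was called (edgeR adjusted p = 0.35 and 0.53). Without EtOH replicate 1, 1 neural marker was higher. Of 10 trophectoderm markers 8 were tested and all 8 were higher, Krt8 and Krt18 among them (all genes tested: 21.4% higher). Hand1, among the 8, gave 3, 9 and 8 counts with vehicle and 46, 46 and 55 with 4OHT, and passed the filter only through 4OHT. Over the 14 alternatives 7 or 8 of these markers were higher and 0 lower. The sum went from between 498 and 519 CPM to between 1050 and 1083 CPM, of which Krt8 (219 to 488 CPM) and Krt18 (160.2 to 370 CPM) made up most. The 2 untested markers were Elf5, at 0 in EtOH and at 1 count in 4OHT, and Cdx2, a defining factor of this lineage, with 31 counts in EtOH and 26 in 4OHT (ratio 0.682, exact 95% interval 0.389 to 1.19). Of 5 tested of 10 primitive endoderm markers, Col4a1 was higher and 0 were lower by edgeR or DESeq2 (0 at an unadjusted p under 0.05), with the sum between 223 and 224 CPM in EtOH and between 319 and 339 CPM in 4OHT and Afp at 0. Col4a1 by itself went from 104 to 201 CPM. Lama1 (99.9 and 102 CPM), Dab2 (9.95 and 11.9 CPM), Gata4 (5.20 and 5.73 CPM) and Sox7 were not called. Sox7 went from 2.30 ± 0.234 to 3.73 ± 1.13 CPM, and its groups did not overlap (edgeR adjusted p = 0.081). At an unadjusted p under 0.05, 2 primitive endoderm markers were higher. Leaving out EtOH replicate 2, or replicate 1 or 3 of 4OHT, gave 2 higher markers. Of 2 tested of 9 mesoderm markers, Kdr was higher and the Brachyury gene T lower, with the sum between 8.34 and 10.0 CPM in EtOH and between 4.85 and 7.16 CPM in 4OHT and Msgn1 at 0. Kdr gave 4, 0 and 4 counts with vehicle and 12, 12 and 21 with 4OHT. T gave 22, 25 and 16 against 0, 5 and 4. Each passed the filter only through the group where it is high, so being tested nearly fixed the direction of its call. Of 3 tested of 8 fibroblast markers 0 were called by edgeR or DESeq2 (1 higher at an unadjusted p under 0.05), with the sum between 15.1 and 23.1 CPM in EtOH and between 19.5 and 25.2 CPM in 4OHT and Lum at 0. Without EtOH replicate 2 or 4OHT replicate 1, 1 fibroblast marker was higher.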

How the data were processed

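The mRNA of mESCs was sequenced in 6 libraries made with a stranded kit. The values are raw counts per gene as deposited. Per the submitters' processing notes, fastp, STAR and featureCounts were used on mm10. For the versions, annotation, strand setting and handling of multi-mapped reads, the record is silent: not given in the sources used here. The deposited gene length was used for RPKM.

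Genes passing edgeR's filterByExpr (minimum count 10, total 15) were kept, 12345 of 27179, including 1314 rows without a symbol before the filter (0.411% to 0.478% of counts). After TMM scaling, groups were compared with edgeR 4.0.16 (robust quasi-likelihood test, R 4.3.3), adjusted by Benjamini-Hochberg over all tested genes, with a threshold of 0.05. SE is the absolute log2 fold change over the square root of F. CPM are counts over the total scaled by TMM factors. Ratios of summed counts have exact (Clopper-Pearson) 95% intervals that cover counting error only. Shares were compared by exact permutation over libraries.

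The 9 genes and all lists were chosen with earlier results of these data known. Named were the 9 genes, up to 4 called genes per pathway list and 2 per marker list by smallest p, those behind counts of 5 or fewer, Tfe3 and the 3 nearest profiles (log2 CPM, prior count 2, average log2 CPM of at least 2); others named, such as Rdh10, Por, Ncor1, Cyp26b1, Cyp26c1, Hoxb1, Cdx2, Lama1, Dab2 and Gata4, were chosen after their values were seen. Some listed genes are counted but not reported by name here. Alternatives were other scalings, filters, tests (DESeq2 1.42.0, limma-voom from limma 3.58.1) and thresholds, the replicate block, and leaving out each library. Steps were tested on simulated data. No pair of libraries held identical values, and replicates differed by more than counting error. Positions and promoters are from RefSeq on GRCm38.p6, the assembly called mm10, matched by Entrez identifier, and exon overlaps from GENCODE vM21.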

Additional observations from a re-analysis of the deposited data

How the results depend on the processing

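Over 14 alternatives Rara, Crabp1 and Crabp2 were lower and called in each, and no tested gene of the 9 changed direction. The log2 fold change ranged from -0.73 to -0.63 for Rara, from -1.27 to -0.70 for Crabp1 and from -1.79 to -1.39 for Crabp2. For Crabp1 the weakest value was that without EtOH replicate 3 (edgeR adjusted p = 0.048). Rxrb, not called in the analysis reported, was called lower with DESeq2 size factors (-0.19), upper quartile factors (-0.22) and limma-voom (-0.19), and leaving out each library in turn gave -0.22 to -0.15, called without 4OHT replicate 1 (edgeR adjusted p = 0.036). For Rarg leaving out each library gave -0.13 to -0.024, called without EtOH replicate 2 alone. Of the 9 genes 3 or 4 were called lower and 0 higher in every alternative. Over all genes, leaving out each library gave 2306 to 2544 higher and 2129 to 2407 lower genes, against 2643 and 2546. These fits tested 12536 to 12638 genes against 12345, since the filter lets in more low genes with a smaller group. Over all 14 alternatives the ranges were 1926 to 2700 higher and 1761 to 2958 lower.

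The replicate numbers share no stated culture or day, and deviations of libraries with the same number had correlations of -0.0226, -0.0161 and -0.0170, so they were not treated as pairs. With the replicate block, Rara was at -0.68, Crabp1 at -1.04, Crabp2 at -1.55, Rxrb at -0.18, Rarg at -0.07 and Rxra at 0.05 on the log2 scale, with the same calls, and 5082 genes were called against 5189. Depth limits Rarb, Stra6 and Cyp26a1, whose ratios have intervals that include 1.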
